A study of Mus musculus with 37 samples.

Results

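The interferon-inducible GTPases of the guanylate-binding protein (GBP) and immunity-related GTPase (IRG) families were followed in brown adipose tissue through 10 genes: *Gm4841*, *F830016B08Rik*, *Iigp1*, *Igtp*, *Irgm1* and *Irgm2* of the IRG family and *Gbp2*, *Gbp3*, *Gbp6* and *Gbp7* of the GBP family. They were picked by gene symbol among 24657 symbols, and the probe set with the highest mean over the BXD strains stood for each gene. The genes were chosen by measured values of these same arrays, with their rise in the strain BXD80 already known, so BXD80 is described here without a test, and tests were run over the other 34 BXD strains. All 10 were found. The tissue came from 35 BXD strains, which are inbred lines derived from crosses of C57BL/6J and DBA/2J, and from both parental strains. The mice were chow-fed males aged 29 weeks that had been fasted overnight. RNA of about 5 mice was pooled for each strain and run on 1 array, so no strain has a replicate and differences between mice of a strain are not seen. The brown fat markers *Ucp1* and *Cidea* had means of 15.37 and 14.73 units over the BXD strains.

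GBPs and IRGs are induced by interferons, above all by interferon-γ, through transcription factors such as IRF1. Their proteins gather on the vacuoles that enclose intracellular parasites and bacteria and help to break these compartments open. Among the IRGs, effectors such as *Iigp1* attack the vacuole, while the regulators *Irgm1*, *Irgm2* and *Igtp* (IRGM3) sit on the cell's own membranes and keep the effectors inactive there.

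Levels are given in units of the rescaled arrays, each of which has a mean of 8 and a standard deviation (SD) of 2. A step of 1 unit equals a doubling for arrays whose log2 values already had an SD of 2 when they were rescaled, and that is not known. Olfactory receptor probe sets, taken as background, had a 95th percentile of 7.94 units. Of the 10 genes, 8 had a mean above that limit. *Irgm1*, with a mean of 7.39 units, and *Gbp6*, with a mean of 5.30 units, lay under it, and their values are close to or within the background. *Gm4841* and *Gbp3* passed narrowly, with means of 8.09 and 8.07 units, and were above the limit in 14 and 21 of 35 strains. Where the median of the other strains lay under the limit, the distance of BXD80 from it is given as a lower bound, taken from the limit. Distances of flanking genes, and those below the median, are as measured.

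BXD80 had the highest level of the 35 BXD strains for 8 of the 10 genes, and the median of BXD80 minus the median of the other strains over the 10 genes was 1.5 units. Over all 41155 probe sets that median was -0.02 units, and 3.01% of the probe sets were highest in BXD80. A rise of at least 1 unit above the median of the other strains was seen for 8 of the 10 genes and for 0.809% of all probe sets. With levels under the background limit set to the limit these were 7 of the 10 genes and 0.248% of all probe sets, and the median over the 10 genes was again 1.5 units. Because this contrast chose the genes, nothing is read from the counts.

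Of the 10 genes, the rise in BXD80 was largest for a pair of IRG genes, *Gm4841* and *F830016B08Rik*, which lie side by side on chromosome 18. In the other 34 strains *Gm4841* ranged from 7.11 units in BXD92 over a median of 7.82 to 9.31 in BXD43, and BXD80 stood at 12.14 units. *F830016B08Rik* ranged from 7.68 units in BXD81 over a median of 8.46 to 9.52 in BXD103, and BXD80 stood at 12.62 units. BXD80 was thus alone at the top for both, 2.83 and 3.10 units above the next strain, with no overlap with the rest. Its distance from the median of the others came to at least 4.20 units for *Gm4841*, whose median lay under the background limit, and to 4.16 units for *F830016B08Rik*, which would be at least 18.3-fold and 17.9-fold if 1 unit were a doubling. A further probe set of *Gm4841*, with a mean of 6.97 units, read 11.08 units in BXD80 and at most 7.60 units elsewhere. Over the other 34 strains the 2 probe sets of *Gm4841* had a Pearson's r of 0.35. Which of them reads the gene is not known, since the probe sequences were not at hand, and the correlations of *Gm4841* given below rest on the brighter one.

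*Iigp1*, the effector that loads onto parasite vacuoles, lies next to this pair and was well expressed in every strain. It ranged from 9.20 units in BXD81 over a median of 9.94 to 11.35 in BXD99, and BXD80 stood at 12.15 units. BXD80 was 0.80 units above BXD99, a gap smaller than the 2.14 units that separated the lowest from the highest of the other strains.

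The regulatory IRGs followed in BXD80 with rises of different size. *Igtp* ranged from 8.82 units in BXD66 over a median of 9.29 to 10.62 in BXD99, against 11.55 units in BXD80. *Irgm2* ranged from 8.64 units in BXD81 over a median of 9.77 to 11.12 in BXD61, against 11.40 units in BXD80. For *Igtp* the gap to the next strain was 0.93 units, while for *Irgm2* it was 0.28 units, so BXD80 lay close to the top of the other strains for *Irgm2*. *Irgm1* had its highest level in BXD80, 8.49 units, and a range of 6.62 to 8.0 units with a median of 7.32 in the others. Of the 35 strains, 2 had *Irgm1* above the background limit.

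Of the GBPs, large GTPases that act on vacuoles and on inflammasome signalling, the 4 followed here lay at most 1.37 units over the median of the others in BXD80. *Gbp2* ranged from 9.48 units in BXD89 over a median of 10.01 to 10.91 in BXD99, against 11.38 units in BXD80. *Gbp3* ranged from 7.46 units in BXD48 over a median of 8.0 to 8.85 in BXD99, against 9.04 units in BXD80. *Gbp7* ranged from 8.51 units in BXD83 over a median of 9.39 to 10.42 in BXD99, and BXD80, at 10.36 units, was the second highest strain. *Gbp6* was the exception, with 5.02 units in BXD80, rank 31 of 35, and 4.80 to 5.90 units in the others. *Gbp6* has a close paralog in *Gbp10*, and how the probes divide the signal of these 2 genes is not known.

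**Figure D1:**
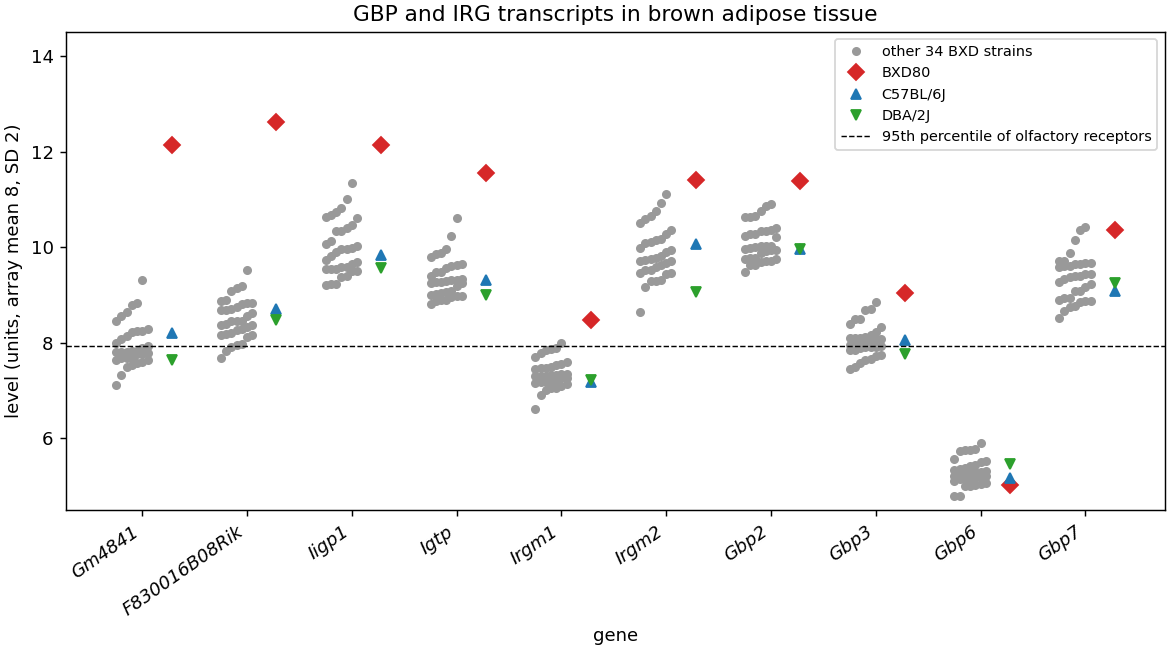
Level of each of the 10 GTPase genes in units (vertical axis) for the other 34 BXD strains (grey points), BXD80 (red diamonds), C57BL/6J (blue triangles) and DBA/2J (green triangles), 1 array per strain. The dashed line is the background limit of 7.94 units; BXD80 lies above every grey point for 8 genes, farthest for *Gm4841* and *F830016B08Rik*, and among them for *Gbp6* and *Gbp7*.

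The genes lie in rows of related GTPase genes, whose order was taken from the RefSeq annotation of GRCm38.p6. The 10 genes fall in 5 such rows, which hold 25 genes with a probe set, and 18 of the 25 were highest in BXD80. The 25 include the 10 genes chosen by this rise, and 8 of these are among the 18. Of all probe sets, 3.01% were highest in BXD80. The rows were taken because they hold the 10 genes, so nothing is read from the count. On chromosome 18 all 5 genes from *Gm4951* to *BC023105*, 3 of them among the 10 genes followed, were highest in BXD80. Their distances from the median of the others were 2.21 units for *Iigp1*, 2.49 for *Gm4951* and 4.16 for *F830016B08Rik*, and at least 4.20 for *Gm4841* and 2.12 for *BC023105*, whose medians lay under the background limit. *Gm4951*, another IRG gene, stood at 11.80 units in BXD80 and at most 10.43 units elsewhere. The pseudogene *BC023105* stood at 10.06 units in BXD80 and at most 8.78 units elsewhere. These rises stopped at the ends of the row: the 5 genes on either side, *Slc27a6* to *Chsy3* and *2010002N04Rik* to *Synpo*, differed from their medians by -0.24 to 0.06 units, and 0 of these 10 flanking genes were highest in BXD80.

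On chromosome 5, where *Gbp6* lies, most neighbours were high in BXD80 and *Gbp6* was not. *Gbp11* stood at 10.30 units in BXD80 against a median of 7.37, *Gbp8* at 8.74 against 6.42, *Gbp10* at 11.57 against 9.72 and *Gbp4* at 10.61 against 9.09. All 4 were highest in BXD80. The medians of *Gbp11* and *Gbp8* lay under the background limit, and their distances were at least 2.36 and 0.80 units. *Gbp9*, in the same row, ranked 13 with 8.79 units against a median of 8.48. On chromosome 3, 2 of 5 genes from *Gbp5* to *Gbp2* were highest in BXD80, *Gbp2* and *Gbp3*, which are both among the genes followed. *Gbp5*, which takes part in inflammasome assembly, was the second highest there with 9.39 units, and *Gbp2b*, listed on the array as *Gbp1*, ranked 11.

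On chromosome 11 the row of *Gm12250* (IRGB10), *Igtp* and *Irgm2* had 3 of 3 genes highest in BXD80, with distances of 2.27 units for *Igtp*, 1.64 for *Irgm2* and at least 1.23 for *Gm12250*. Of these, *Igtp* and *Irgm2* are among the genes followed. The row from *Irgm1* to *Tgtp2* had 4 of 6, *Irgm1* among them, and *Gm12185* stood at 8.17 units against a median of 6.55. That median lay under the background limit, and the distance was at least 0.23 units. *Gm5431*, also of the 4, lay under the limit in BXD80 too, at 7.41 units. Just beyond this row lies *Olfr56*, which is annotated as an olfactory receptor and has 3 annotated genes between it and the IRG gene *Ifi47*. *Olfr56* behaved unlike a background probe set: it was highest in BXD80, at 8.81 units against a median of 7.69. Its median lay under the limit, and its distance was at least 0.87 units. Over the 5 rows the medians of the flanking genes lay between -0.10 and 0.13 units, and *Olfr56* was the 1 of 50 flanking genes that was highest in BXD80. Single flanking genes ranged from -0.76 units for *Ccbl2*, beside *Gbp2*, to 1.12 units for *Olfr56*. *Lrrc8b*, beside *Gbp11*, lay 0.58 units above its median.

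**Figure D2:**
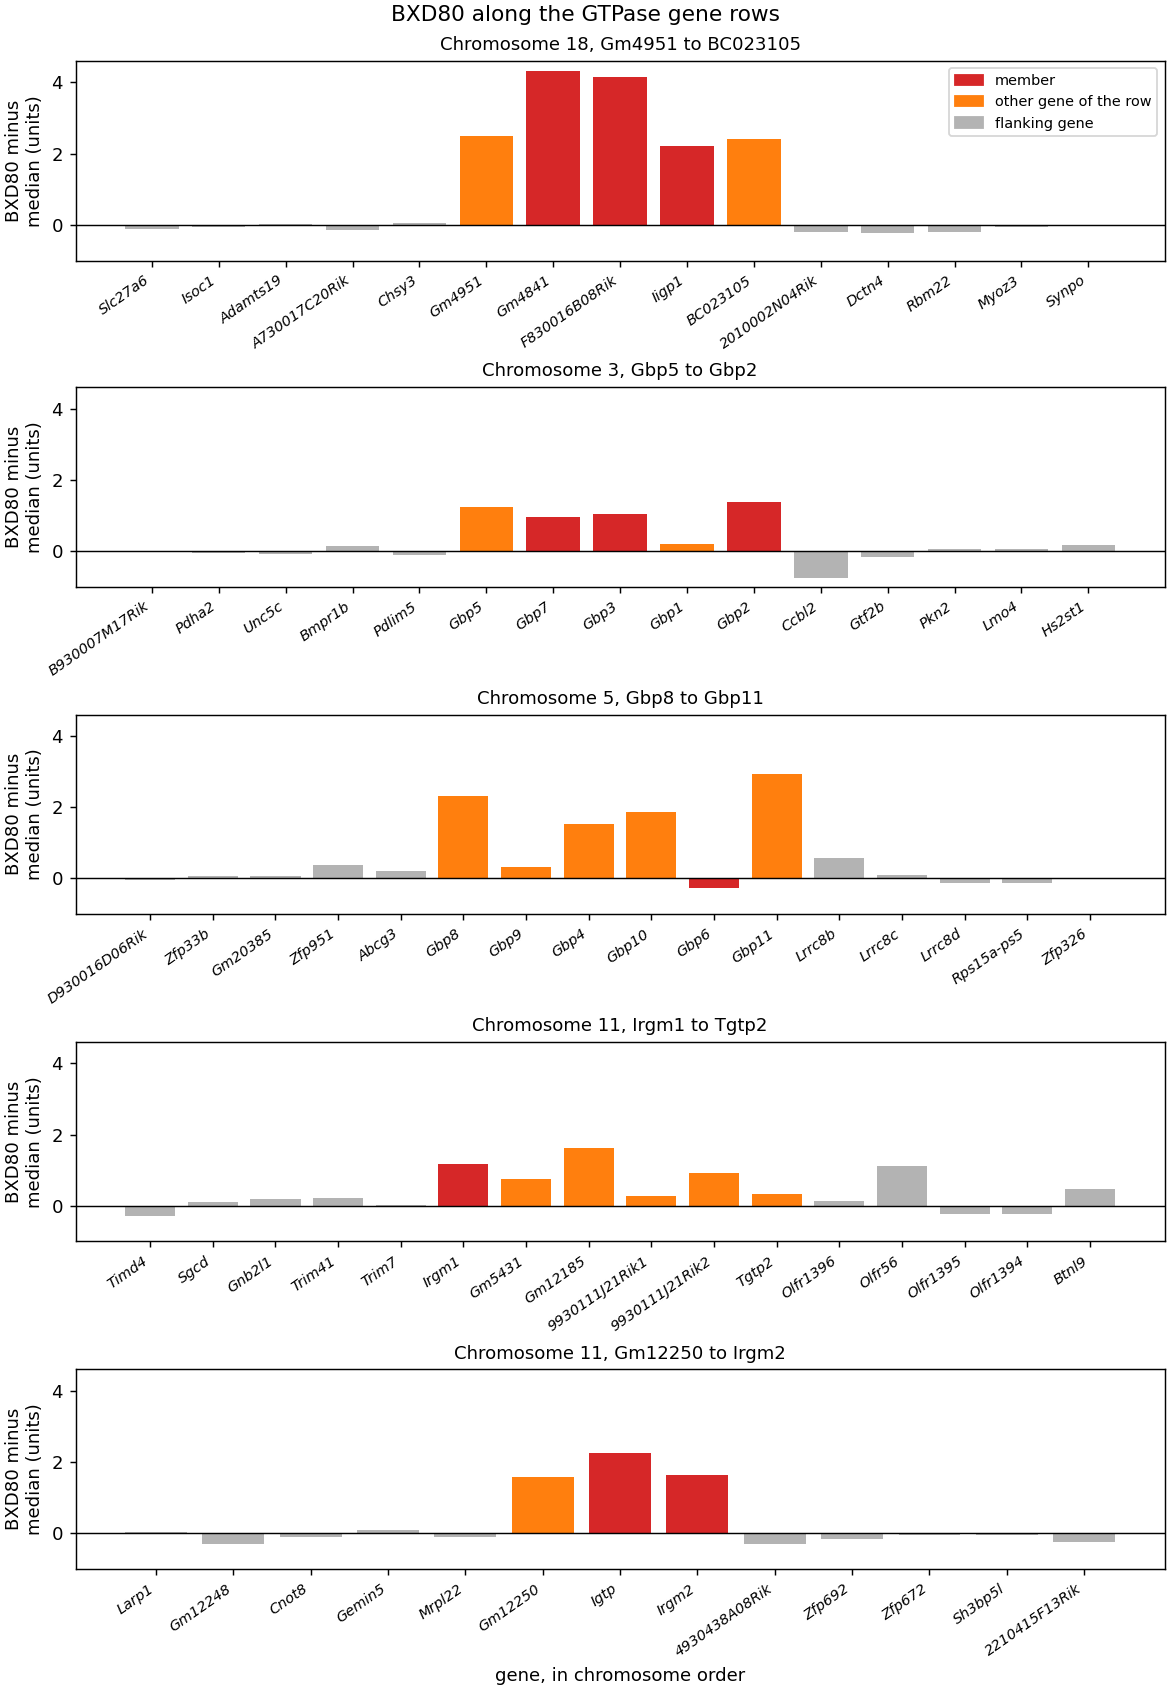
BXD80 minus the median of the other 34 BXD strains in units (vertical axis) for each gene with a probe set, in chromosome order, in the 5 rows that hold the GTPase genes; red bars are the 10 genes followed, orange bars other genes of a row and grey bars the 5 genes on either side. The bars of the chromosome 18 row reach from 2.21 to 4.32 units and those of its flanking genes from -0.24 to 0.06 units. Bars are drawn from the measured medians. In the chromosome 18 row these lie under the background limit for *Gm4841* and *BC023105*. In the other rows they do so for *Gbp2b* (*Gbp1*), *Gbp8*, *Gbp6*, *Gbp11*, *Irgm1*, *Gm5431*, *Gm12185* and *Gm12250*. Several flanking genes lie under it as well.

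With each symbol outside the 10 genes represented by its brightest probe set, the largest gaps of BXD80 above the next strain were those of *Gm4951* (1.37 units), *BC023105* (1.28 units), *Cd3g* (1.21 units), *Gbp11* (0.99 units), *Cxcl9* (0.97 units), *Il2rb* (0.94 units), *Gm12185* (0.94 units), *Gm4759* (0.93 units), *LOC665506* (0.91 units) and *Trav9d-3* (0.89 units). A dimmer probe set of the immunoglobulin gene *Ighg*, at 6.86 units in BXD80, had a gap of 1.17 units, and 2 probe sets without a symbol had gaps of 1.49 and 0.98 units; the next strain lay under the background limit for all 3. It did so for *Cd3g* and *Gm12185* as well, whose gaps above the limit were 0.75 and 0.23 units, and *Gm4759* lay under the limit in BXD80 too. Of the symbols in the list, 5 are GTPase genes or pseudogenes of their rows or of the very large inducible GTPases. *Cd3g*, *LOC665506* and *Trav9d-3* encode or resemble parts of the T cell receptor complex, *Il2rb* is a receptor chain of lymphocytes for interleukin 2, and *Cxcl9* is a chemokine that draws T cells.

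The rest of the interferon-γ pathway was described in BXD80 by gene lists. These lists were chosen with earlier results of these data known, and 3.01% of all probe sets were highest in BXD80. Of 8 genes of interferon-γ signalling, 2 were highest in BXD80: *Irf1* at 9.97 units against 9.41 in the median of the others and *Irf8* at 8.91 against 8.03. *Ifng* itself, at 7.84 units, ranked 5 and lay under the background limit. Of 20 interferon-γ targets outside the GTPases, 12 were highest, with a median distance of 0.48 units. They included *Cxcl9*, at 13.03 units against 11.11, and the peptide transporter *Tap1*, at 11.02 against 9.91. *Cxcl11* and the checkpoint ligand *Cd274* were the lowest of the list, with 0.09 and 0.02 units below the median. The type I interferon list summed to 232.53 units in BXD80, rank 2, and to at most 234.52 units in the others, but its genes were mixed. Of its 26 genes 6 were highest in BXD80, with a median distance of 0.41 units, or 0.32 with levels under the limit set to it. The nucleic acid sensor *Zbp1* led with 9.87 units against 8.70, while *Irf7*, the main factor of the type I response, stood at its median of 8.86 units and *Mx1* ranked 31. Of 14 other GBP and IRG genes, 7 were highest, with a median distance of 1.02 units, or 0.86 with levels under the limit set to it. Of 11 genes of the ubiquitin-like conjugation system that places these GTPases on membranes, 0 were highest, and their median distance was -0.0035 units. *Gabarap* and *Gabarapl2* were lower in BXD80 than in any other BXD strain, at -0.17 and -0.31 units from their medians. *Trim21*, of the same list, ranked 3, at 0.40 units above its median.

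T cell markers were also high in BXD80. Of 8 T cell genes, 6 were highest there, against 3.01% of all probe sets. Among them were *Cd3g* at 8.69 units against a median of 6.66 and *Cd3e* at 9.19 units against 8.08, while *Cd2* ranked 21. The median of *Cd3g* lay under the background limit, and its distance was at least 0.75 units. The list summed to 66.27 units in BXD80 and to between 58.54 and 63.78 units in the other strains, highest in BXD62, and its gene with the highest mean signal was *Cd5* with 8.22 units. The order of the signals of different probe sets is not an order of transcript amounts. In BXD80 6 of the 8 lay above the background limit, against 2 by their means over all strains. The part of T cells in the BXD80 rise was not tested. In pooled tissue, more cells of a type and more RNA per cell cannot be told apart.

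Lists of other cell types held fewer genes that were highest in BXD80, a rank that 3.01% of all probe sets had. By their means, 2 of 8 NK cell, 0 of 6 B cell and 2 of 6 dendritic genes lay above the background limit. In BXD80 these numbers were 2, 1 and 5. The sums of these lists thus rest largely on genes with means under the limit. Of 8 NK cell genes 0 were highest, with *Nkg7* the highest in mean signal, and the summed level, 57.30 units, lay within the 55.13 to 58.70 units of the others. Of 6 B cell genes 0 were highest, with 45.70 units in the sum and 43.22 to 46.86 in the others, and *Cd79b* the highest in mean signal. Of 8 macrophage genes 0 were highest, with 79.89 units in the sum, rank 5, and *Lyz2* the highest in mean signal. Of 6 dendritic cell genes 1 was highest, *Clec9a*, a marker of cross-presenting dendritic cells, at 8.17 units against 7.26. That median lay under the background limit, and the distance was at least 0.23 units. The dendritic sum of 52.97 units was the highest of all strains, against at most 52.05 in the others, and *Cd209a* had the highest mean signal. Endothelial cells had 1 of 6 genes highest, *Cdh5*, also the highest of that list in mean signal, and rank 2 in the sum. For skeletal muscle, brown adipocytes, white adipocytes and hepatocytes 0 genes were highest in BXD80, and the sums ranked 20, 19, 8 and 26. Their genes with the highest mean signal were *Acta1*, *Ucp1*, *Retn* and *Ttr*. Single genes of the adipocyte lists moved apart in BXD80. Of the 8 brown adipocyte genes, *Cox8b* was the lowest of the 35 strains, 0.24 units under the median of the others, *Dio2* ranked 34, at 8.71 units against 9.92, and *Cox7a1* ranked 32, while *Elovl3* stood at 12.70 units against 11.82, rank 8, and *Adrb3* ranked 3. Of the 5 white adipocyte genes, *Mest* stood at 10.64 units against 9.41, rank 4, and *Lep* at 12.20 against 11.17, rank 10, while *Retn* ranked 29. The muscle genes lay between -0.15 and 0.12 units from their medians. The part of these cell types was not tested.

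In the other 34 strains the GTPase genes varied more than most transcripts. The median of their SDs was 0.42 units, against 0.19 units over the probe sets above background. *Iigp1* had an SD of 0.56 units and *Irgm2* of 0.54 units, which are past the 95th percentile of 0.48 units, and the other 8 genes were below it. BXD99 was the strain that most often led: it was among the 3 highest of the 34 strains for 8 of the 10 genes. BXD61 was among them for 6, BXD103 for 5 and BXD62 for 4. At the lower end BXD69 was among the 3 lowest for 5 genes, and BXD81 and BXD89 for 3 each. The mean z score of the 10 genes, a description of each strain, ran from -1.14 in BXD89 to 1.92 in BXD99.

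A core of 5 genes, grouped after their values were seen, rose and fell together over these strains: *Iigp1*, *Igtp*, *Gbp2*, *Gbp3* and *Gbp7*, which lie on 3 chromosomes. Each gene was used in turn as a covariate in limma over 41154 other probe sets, and a pair was called where each gene passed an adjusted p of 0.05 in the fit on the other. Of 45 pairs 13 were called, all with positive r, and all 10 pairs within the core were among them. The remaining 3 were *Igtp* with *Irgm1*, *Igtp* with *Irgm2* and *Irgm1* with *Gbp2*. Without adjustment 35 of the 45 pairs had p under 0.05 both ways. Each fit is only 1 of the 2 ways, and 4.14% to 10.6% of all other probe sets had p under 0.05 in the 10 fits. The fits called 0.0389% of all other probe sets for *Iigp1*, 0.0462% for *Igtp*, 0.0948% for *Gbp2*, 0.0413% for *Gbp3* and 0.0219% for *Gbp7*. Among the 9 other genes followed here, the fits called 4 for *Iigp1*, 6 for *Igtp*, 6 for *Gbp2*, 4 for *Gbp3* and 5 for *Gbp7*. In the fit on *Igtp*, 6 of the 19 probe sets that passed were thus among the GTPase genes followed here.

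The closest pair joined an effector with a regulator on different chromosomes. *Iigp1* and *Igtp* had a Pearson's r of 0.86 and a Spearman's rho of 0.83 (n = 34 strains), each with a permutation p of 1e-05, the smallest that 100000 permutations can give, and limma adjusted p values of 6.1e-07 and 4.96e-07. Without the 2 strains farthest from the median of *Igtp*, r was 0.79. *Igtp* and *Gbp2* had an r of 0.83 and a rho of 0.79 (permutation p of 1e-05 for each), with adjusted p values of 8.24e-06 and 9.61e-06 in limma, and an r of 0.79 without the 2 farthest strains. Over the 10 core pairs r lay between 0.74 and 0.86, and between 0.60 and 0.79 without the 2 farthest strains. In all, 65 relations were computed in this way, 45 pairs and 20 with transcription factors, and their permutation p values are not adjusted. Both *Irgm1* pairs rest on a gene under the background limit. For *Igtp* and *Irgm2*, neighbours on chromosome 11, r was 0.72, rho 0.67 (permutation p of 2e-05 for each) and r without the 2 farthest strains 0.64, with limma adjusted p values of 0.0308 and 0.00286.

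The number of called pairs varied with the strains in the fits. With the 2 strains farthest from the covariate's median left out of each fit, limma called 4 pairs in place of 13. Leaving out 2 other strains was not tested. With 1 strain left out at a time there were 10 to 18 pairs, and 10 without any 1 of 11 strains, BXD99 and BXD61 among them. BXD99 was among the 2 farthest for 6 genes and BXD61 for 5. With BXD80 included, limma called 29 pairs, a count that holds the strain that chose the genes.

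**Figure D3:**
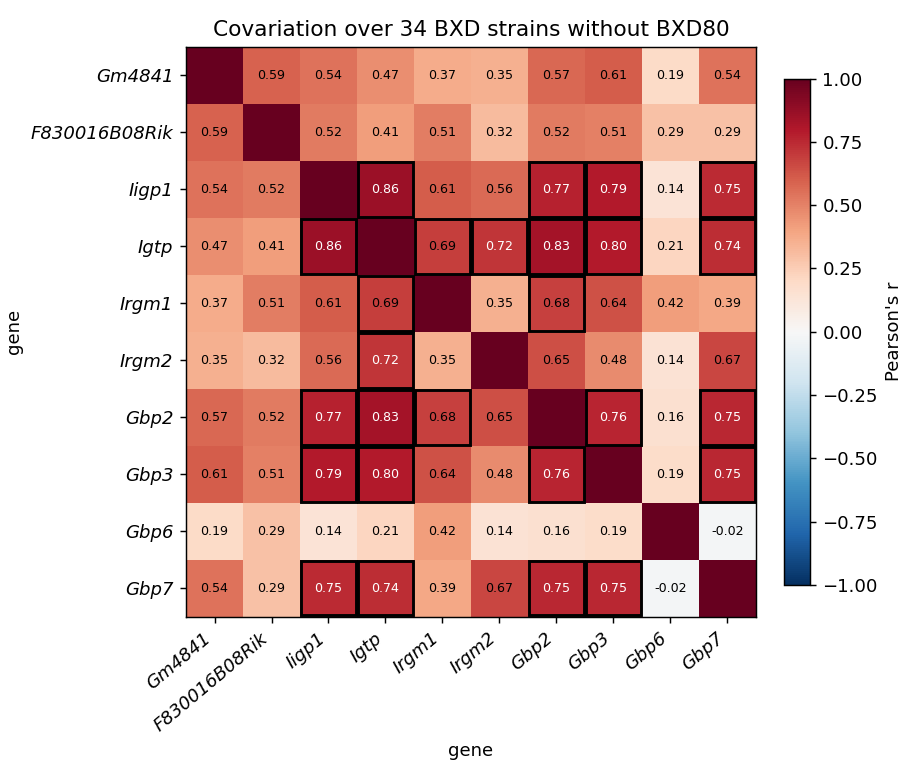
Pearson's r over the 34 BXD strains other than BXD80 for each pair of the 10 GTPase genes, in color and as a number; black frames mark the 13 pairs called by limma in both directions. The framed pairs join *Iigp1*, *Igtp*, *Gbp2*, *Gbp3* and *Gbp7*, with *Irgm1* and *Irgm2* at the side, and *Gm4841*, *F830016B08Rik* and *Gbp6* have no frame.

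*Gm4841* and *F830016B08Rik*, the genes with the largest rise in BXD80, were in none of the called pairs. *Gm4841* was above the background limit in 13 of the 34 strains. With each other they had an r of 0.59 and a rho of 0.69 (permutation p of 0.00015 and 1e-05, n = 34), an r of 0.52 without the 2 farthest strains, and limma adjusted p values of 0.172 and 0.443. *Gm4841* with *Iigp1*, in the same row, had an r of 0.54 and a rho of 0.60 (permutation p of 0.0009 and 0.0002), an r of 0.48 without the 2 farthest strains and adjusted p values of 0.502 and 0.672. These relations were positive but did not pass limma, where the fit on *Gm4841* called 0 of the 9 other genes followed here with 8 at an unadjusted p under 0.05, and that on *F830016B08Rik* called 0 with 6. Of all other probe sets these fits called 0.00486% and 0%, with 5.89% and 7.28% at an unadjusted p under 0.05. The fit on *Gm4841* did call *Gbp10*, with an r of 0.70 and an adjusted p of 0.0293. Whether the chromosome 18 pair followed the core less closely than the core genes followed each other was not tested.

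*Gbp6* passed with none of the others: limma called 0 of the 9 in the fit on it, with 1 at an unadjusted p under 0.05, and 0% of all probe sets. Its r with the others lay between -0.02 and 0.42, at a level under the background limit. The fit on *Irgm1* called 2 of the 9 and 0.00972% of all probe sets, and that on *Irgm2* called 1 and 0.00243%.

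**Figure D4:**
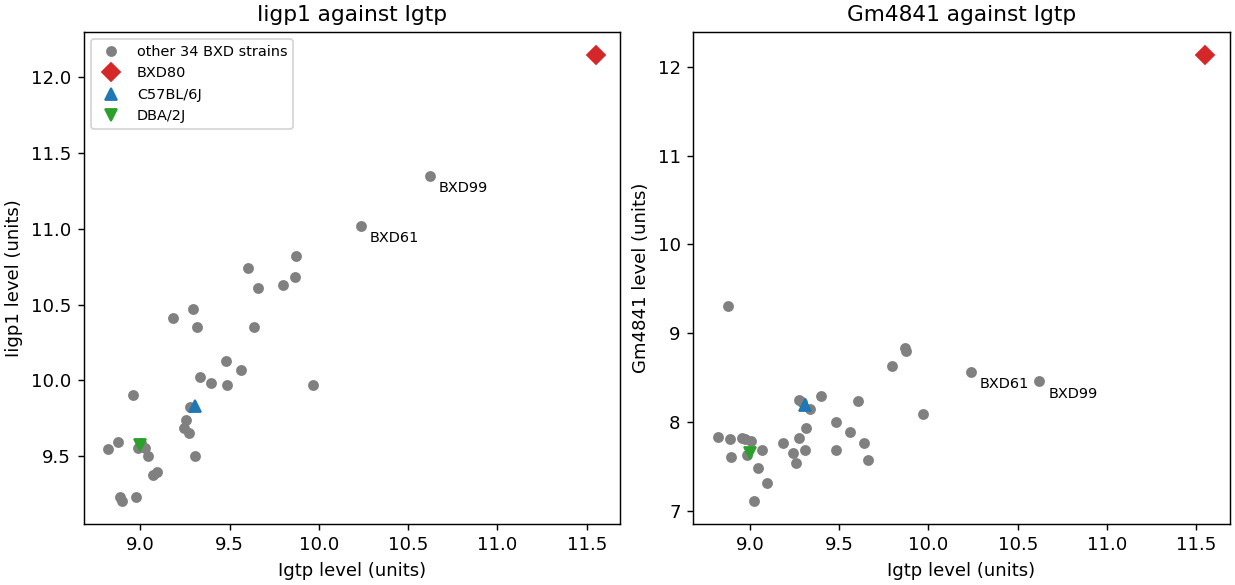
Levels of *Iigp1* (left) and *Gm4841* (right) against *Igtp*, all in units, with 1 point per strain: the other 34 BXD strains in grey, BXD80 as a red diamond and the parental strains as triangles. *Iigp1* and *Igtp* rise together over the grey points (r = 0.86), with BXD99 and BXD61 at their upper end, while *Gm4841* in BXD80, at 12.14 units, stands far above the other strains, whose highest level is 9.31 units in BXD43.

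The transcription factors *Irf1* and *Irf7* of the interferon response passed with few of the genes at the adjusted threshold. With *Irf1* as the covariate, limma called 1 of the 10 genes, *Gbp2* (r = 0.68, rho = 0.68, permutation p of 2e-05 for each, n = 34, r of 0.64 without the 2 farthest strains, adjusted p of 0.0374), and 0.0146% of all probe sets. With *Irf7* it called 0, and 0.139% of all probe sets. At an unadjusted p under 0.05, limma had 8 of the 10 genes for *Irf1* and 8 for *Irf7*, against 8.45% and 10.2% of all probe sets. The call with *Irf1* is narrow. It was lost under quantile normalization, with the muscle list as a covariate, without the 2 farthest strains and at an adjusted p of 0.01. The *Irf1* count fell to 0 with 19 of the 34 strains, BXD99 and BXD61 among them, when each was left out alone, and rose to 4 without BXD66, and the *Irf7* count rose to 3 without BXD99.

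Some related GTPases and interferon-induced genes passed in the fits on the 10 genes. Over all 41155 probe sets, 0.119% passed in at least 1 of the 10 fits. Of 14 other GBP and IRG genes, 4 did: *Gbp4*, *Gbp5*, *Gbp10* and *Gm12250*. *Gbp5* was called in the fits on all 5 core genes, with an adjusted p of 3.13e-06 and an r of 0.85 in that on *Gbp7*, its neighbour. Of 20 interferon-γ targets, 4 passed: *Tap1*, and, in the fit on *Gbp2* alone, the proteasome subunits *Psmb8* and *Psmb10* and the chemokine *Cxcl9*. *Tap1* had an r of 0.77 with *Gbp3* (adjusted p of 0.000832). Of 26 type I interferon genes 7 passed, *Parp14*, *Parp9*, *Ifit2*, *Stat2*, *Zbp1*, *Ifih1* and *Irf9*, and of 8 signalling genes 1 passed, *Irf1*. All of these calls had a positive slope. Of 11 conjugation genes 0 passed in limma, with 3 at an unadjusted p under 0.05 in at least 1 fit.

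Markers of other cells did not pass the adjusted threshold with the GTPase genes over these strains. With the mean z score of the T cell list as the covariate, limma called 0 of the 10 genes, with 0 at an unadjusted p under 0.05, while 1.04% of all probe sets were called. For the NK cell list these were 0 and 0, with 0% of all probe sets called. In both lists, 2 of 8 genes had means above the background limit. For the macrophage list 0 were called, with 1 at an unadjusted p under 0.05 and 2.6% of all probe sets called, and for the muscle list 0, with 2 at an unadjusted p under 0.05 and 1.81% of all probe sets called. The shares of all probe sets at an unadjusted p under 0.05 were 17.8% for T cells, 7.19% for NK cells, 13.3% for macrophages and 10.9% for muscle. Pearson's r of the 10 genes with the T cell list, as a description, ran from -0.29 to 0.32, and with the macrophage list from -0.01 to 0.38. With the muscle list it ran from -0.01 to 0.45, highest for *F830016B08Rik*, and with the brown adipocyte list from -0.47, for *Irgm1*, to -0.01, negative for all 10 genes. The ranges were 0.03 to 0.26 for the NK cell list, -0.34 to 0.03 for B cells, -0.20 to 0.23 for dendritic cells, -0.33 to 0.27 for endothelial cells, 0.06 to 0.37 for white adipocytes and -0.30 to 0.07 for hepatocytes. In the fits on the 10 genes, limma called 0 of the T cell, NK cell, B cell, macrophage, dendritic, endothelial, muscle, brown adipocyte, white adipocyte and hepatocyte genes. At an unadjusted p under 0.05 in at least 1 fit there were 3 of 8 T cell, 4 of 8 NK cell, 2 of 6 B cell, 5 of 8 macrophage and 1 of 6 dendritic genes. For the other lists there were 3 of 6 endothelial, 8 of 8 muscle, 5 of 8 brown adipocyte, 0 of 5 white adipocyte and 2 of 6 hepatocyte genes. Of all probe sets, 32.3% did so.

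Outside the 10 genes themselves, Pearson's r with their mean z score over the 34 strains, given as a description over strains that share no array, was highest for *Gbp5* (0.87), *Gm4951* (0.86), *Gbp10* (0.86), *Gbp4* (0.76), *Herc6* (0.76), *Tap1* (0.75), *Parp14* (0.70), *Olfr56* (0.70), *H2-T24* (0.70) and *Apol10b* (0.68). Of these 10, 5 are in the interferon and GTPase lists used here: *Gbp5*, *Gbp10*, *Gbp4*, *Tap1* and *Parp14*. *Herc6* is a ligase for the interferon-induced ubiquitin-like protein ISG15, and *H2-T24* belongs to the class I histocompatibility genes. *Gm4951* shares its row with *Gm4841* and *F830016B08Rik*, whose own r with this mean, which includes them, was 0.70 and 0.66. Of the genes with the highest r, *Olfr56* and *Apol10b*, with means of 7.72 and 7.25 units, lay under the background limit. The lowest r were those of *Olfr1200* (-0.61), *Mir150* (-0.59), *Cyp2c66* (-0.59), *Gm6202* (-0.58) and *Defb7* (-0.56), of which *Gm6202* alone had a mean above the background limit.

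The parental strains have 1 array each, so their differences have no test. *Irgm2* had the largest difference of the 10 genes, with 10.08 units in C57BL/6J and 9.07 units in DBA/2J. Its difference of -1.0 units (DBA/2J minus C57BL/6J) was the only one of the 10 past the 95th percentile of all absolute differences, 0.77 units, a limit that 5% of all probe sets pass. A count of 1 of 10 is near that share, so nothing is read from it. For *Irgm2*, 21 of the 35 BXD strains lay between the parents, 13 above both and 1 below both. *Gm4841* came next, with 8.20 units in C57BL/6J and 7.65 in DBA/2J. *Gbp2* was the closest pair of values, 9.97 units in each. DBA/2J was lower for 7 of the 10 genes, *Gbp2* among them by under 0.01 units, and for 48.1% of all probe sets, and the median difference was -0.24 units, against 0.01 units over all probe sets. Outside the 10 genes, *Gbp9* had 8.65 units in C57BL/6J and 7.39 in DBA/2J, and *Gbp11* had 6.99 and 8.05 units.

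BXD80 was above both parents for every gene but *Gbp6*. It exceeded the higher parent by 3.94 units for *Gm4841*, 3.90 for *F830016B08Rik*, 2.32 for *Iigp1* and 2.24 for *Igtp*, and it was below both parents for *Gbp6*. The DBA/2J array also carried liver transcripts, with *Alb* at 13.93 units against 8.76 in C57BL/6J and a hepatocyte sum of 67.82 units against 44.43. The BXD70 array had the highest hepatocyte sum of the BXD strains, 76.88 units. All 8 macrophage genes were higher in DBA/2J as well, from *Itgam*, by 0.01 units, to *Cd68*, at 11.05 units against 9.57. Of 6 dendritic cell genes 4 were higher, led by *Itgax* at 8.97 units against 7.10, while *Xcr1* was lower, at 7.22 against 7.48, and *Zbtb46* was equal. The part of these cells in the parental differences was not tested. Without BXD70, limma called 11 pairs, and with both parents included 13.

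Since genes of both families rose and fell together, their promoters were searched for a shared element of interferon-responsive genes. RefSeq promoters of GRCm38.p6 were at hand for 6 of the 10 genes: *Gbp7*, *Gbp3* (2 entries), *Gbp2*, *Irgm1*, *Igtp* and *Irgm2*. An element of the interferon-stimulated response type was written as GAAANNGAAA, or TTTCNNTTTC on the other strand, and searched in the 250 bases before the start. It was present for 6 of 6 genes and in 6 of 7 promoters, against 936 of 27025 genes and 2.98% of 32851 promoters in all. Among other lists it was present for 5 of 9 further GBP and IRG genes, 7 of 17 type I interferon genes, 2 of 13 interferon-γ targets, 1 of 8 signalling genes, 0 of 10 conjugation genes, 0 of 6 T cell genes and 0 of 4 macrophage genes. A gamma-activated type, TTCNNNGAA, the same on both strands, was present for 3 of 6 genes, against 2197 of 27025 genes and 7.02% of all promoters. It was present for 4 of 9 further GBP and IRG genes, 3 of 8 signalling genes, 2 of 10 conjugation genes, 2 of 17 type I interferon genes, 2 of 13 interferon-γ targets, 1 of 6 T cell genes and 0 of 4 macrophage genes. These matches are letters in a window, not sites shown to be bound.

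The matches lie close to the start, and the stretches around them are shown because each holds the pattern. *Iigp1*, a core gene, has no entry, so its promoter was not searched. Capitals mark GAAANNGAAA or its reverse, each with up to 25 bases on either side and no base after the start, 5′ to 3′ on the strand of the gene. The *Gbp7* stretch is chr3:142530258-142530317 (plus strand), *Gbp3* chr3:142559974-142560039 (plus), *Gbp2* chr3:142620579-142620638 (plus), *Irgm1* chr11:48871421-48871475 (minus), *Igtp* chr11:58199497-58199555 (plus) and *Irgm2* chr11:58214888-58214947 (plus).
Gbp7: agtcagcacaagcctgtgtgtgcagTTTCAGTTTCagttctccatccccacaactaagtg
Gbp3: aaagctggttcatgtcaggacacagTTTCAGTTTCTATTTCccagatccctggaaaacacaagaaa
Gbp2: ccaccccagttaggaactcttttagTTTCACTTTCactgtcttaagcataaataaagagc
Irgm1: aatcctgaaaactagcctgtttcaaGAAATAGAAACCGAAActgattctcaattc
Igtp: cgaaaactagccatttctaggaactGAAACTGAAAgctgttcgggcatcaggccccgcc
Irgm2: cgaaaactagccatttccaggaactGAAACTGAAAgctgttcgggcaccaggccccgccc
In the 3 GBP promoters the element reads in the reverse form and in the 3 IRG promoters in the forward form. It begins 53 bases before the start in *Gbp7*, 45 in *Gbp3*, 59 in *Gbp2*, 30 in *Irgm1*, 34 in *Igtp* and 64 in *Irgm2*. *Gbp3* and *Irgm1* hold 2 overlapping matches. The stretches of *Igtp* and *Irgm2* are alike in 57 of 59 bases, so these neighbours share more than the element. The match does not set the core apart, since *Irgm1* and *Irgm2*, with fewer called pairs, carry it too.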

How the data were processed

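Brown adipose tissue RNA, pooled by strain, was measured on 37 Affymetrix arrays (35 BXD strains and both parents). The authors deposited scores: each array was rescaled by the authors to a mean of 8 and an SD of 2. Affymetrix Expression Console is named in the submitters' processing notes; summary method, background correction and log base are not given in the sources used here. Precision is limited by the arrays' number and by the background. Of 41345 probe sets, 190 array controls were left out. Members and lists were chosen with earlier results of these data known.

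Each member, *Irf1*, *Irf7* and the mean z score of the T cell, NK cell, macrophage and muscle lists was a continuous covariate in limma 3.58.1 (lmFit, eBayes, two-sided; R 4.3.3) over 34 strains, with Benjamini-Hochberg adjustment over all probe sets tested and a threshold of 0.05. The fit on *Igtp* was tested on simulated data with independent noise for each probe set. The other covariates were not tested in this way. The values of 1 planned covariate and list gene are not reported here. Correlations had 100000 two-sided permutations. Older symbols and gene order came from the RefSeq annotation of GRCm38.p6, without coordinates. Named genes were the members, list genes, the 10 symbols most and 5 least like the members' mean z score, and the 10 largest BXD80 gaps. Other genes of the gene rows were named after their values were seen. Alternatives were other scalings, averaging of each gene's probe sets, other sets of strains, the muscle list as a covariate, ranks, a background filter and a stricter threshold. The remaining steps ran in Python 3.11.15 with pandas 2.3.3 and numpy 2.4.6, scipy 1.17.1 for ranks and matplotlib 3.10.9 for plots.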

Additional observations from a re-analysis of the deposited data

How the results depend on the processing

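The number of members highest in BXD80 was 8 and the number past the parental 95th percentile was 1 under quantile normalization, centring on the median and averaged probe sets, and both medians kept their direction. Apart from leaving out each strain in turn, the 13 called pairs became 10 to 14 under the other planned settings except 2: 29 with BXD80 included and 4 without the 2 farthest strains. With each strain left out in turn they numbered 10 to 18, the latter without BXD43. Members called with *Irf1* (1) numbered 5 with BXD80 included and 0 with quantile normalization, without BXD70, without the 2 farthest strains, with the muscle list as a covariate and at an adjusted p of 0.01. With each strain left out they numbered 0 to 4: 4 without BXD66, and 0 without BXD43, BXD48, BXD49, BXD50, BXD55, BXD61, BXD62, BXD64, BXD65, BXD70, BXD75, BXD79, BXD81, BXD84, BXD89, BXD92, BXD95, BXD96 or BXD99. The count for *Irf7* (0) was 3 without BXD99 and 0 otherwise. Those for the T cell, NK cell, macrophage and muscle lists were 0 in every setting run. Leaving out strains lowers the number of arrays; otherwise the cause was not tested. No paired analysis was possible because each strain has 1 array. *Gbp6* and *Irgm1* are limited by signal over background.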
